A study of Mus musculus with 9 samples.

Results

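Chemokine genes encode small secreted proteins that draw leukocytes along a concentration gradient through G protein-coupled receptors. They were taken as all gene symbols that begin with Cxcl, Ccl, Cx3cl or Xcl followed by a digit, with Cxcl12 left out. This gave 38 of the 24421 symbols in the files, of which 12 were CXC, 24 were CC and 2 were of the C and CX3C kinds. They were read in tumors of the liver taken from C57BL/6 mice at an age of 11 weeks. The 9 tumors formed 3 groups of 3, LHP (tumors 2, 3 and 6), S7HP (tumors 9, 11 and 12) and S7HP+Snail (tumors 13, 14 and 15). The column names tie LHP to a Luc construct, S7HP to Smad7, an intracellular inhibitor of the TGF-β pathway, and the last group to Smad7 with Snail, a transcriptional repressor of epithelial genes. The letters H and P are shared by all groups and the labels do not spell them out. The labels give neither a promoter for the constructs nor the animals the tumors came from, so every p-value is set against a spread among tumor samples that may be technical.

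Chemokines fall into families by the spacing of their first cysteines, and into working sets by the receptor they bind. In the liver, the CXC ligands of CXCR2 are known for attracting neutrophils. Ligands of CXCR3 are induced by interferon and attract activated T and NK cells, and ligands of CCR2 recruit blood monocytes. Other CC chemokines attract eosinophils, dendritic cells and lymphocyte subsets, often from epithelial cells or macrophages. The NF-κB factors and the interferon-activated factors bind short motifs in front of several of these genes.

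Levels are log2(normalized count + 1) from 3′ QuantSeq libraries, in which a transcript gives about 1 read whatever its length. A difference is the difference of group means on that scale, and a gene was called higher or lower at a Benjamini-Hochberg adjusted p under 0.05 in limma over 14215 genes. Depth is not preserved by the normalization. If the lowest values stand for successive read counts, 3 reads lay at a level between 1.22 and 2.64 and 10 reads between 2.61 and 4.23, depending on the library. Of the 38 chemokine genes, 27 were above the level of 3 reads in 9 of 9 libraries. The test took genes at a level of at least 4 in at least 3 libraries, which 34 chemokine genes reached. The other 4 were Ccl1, Ccl26, Ccl28 and Xcl1, and Ccl26 was listed at 0 in every library.

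The libraries of a group correlated at 0.939 to 0.945 in LHP, 0.923 to 0.936 in S7HP and 0.864 to 0.900 in S7HP+Snail (Pearson's r across the tested genes, as a description). Tumor 14 of S7HP+Snail was set apart by principal component 2 (18.6% of the variance), where it lay at 118.1 against 31.3 and 25.9 for tumors 13 and 15, so counts below are also given without it. Smad7 lay between 9.49 and 10.50 in LHP, 6.28 and 6.81 in S7HP and 6.77 and 8.0 in S7HP+Snail, and Snai1, the gene of Snail, between 9.93 and 11.16, 6.17 and 6.92, and 7.31 and 8.53. A 3′ tag counts a construct only if it carries the mouse gene's 3′ end, so neither gene tests which construct a tumor carries. The hepatocyte gene Alb was between 12.98 and 17.32 in all tumors.

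Where the members lie shows which of them are neighbors. In GENCODE mouse release M21 on GRCm38, 37 of the 38 symbols had a position and 25 of them fell into 6 groups of 3 or more genes with gaps of at most 200 kb. The genes grouped here as CXCR2 ligands, Cxcl5, Cxcl3, Cxcl15, Cxcl1 and Cxcl2, lay on chromosome 5 between 90759360 and 90905938 (146.6 kb). The CXCR3 ligands Cxcl9, Cxcl10 and Cxcl11 followed on chromosome 5 between 92321347 and 92365485. Chromosome 11 held Ccl2, Ccl7, Ccl11, Ccl12, Ccl8 and Ccl1 between 82035571 and 82305690, and Ccl5, Ccl9, Ccl6, Ccl3 and Ccl4 between 83525778 and 83664683. Ccl22, Cx3cl1 and Ccl17 shared 66.4 kb of chromosome 8, from 94745590 to 94812036.

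RefSeq promoters on GRCm38.p6, 250 bases before to 50 after a start, were at hand for 26 members. None was at hand for Cxcl5, Cxcl11, Cxcl16, Cxcl17, Ccl2, Ccl4, Ccl5, Ccl7, Ccl11, Ccl21c, Ccl24 and Ccl26, which were not searched. The promoters at hand were searched on both strands for a κB motif, the site of NF-κB, and for the interferon-stimulated response element core, which is GAAA, 2 bases of any kind and GAAA. A κB motif was found in 7 of 32 member promoters (21.9%), against 4.51% of all 32851 promoters, and the response element core in 3 of 32 (9.38%), against 3.44%. The κB matches were in Cxcl1, Cxcl2, Cxcl3, Cxcl10, Ccl20, Ccl9 and Ccl27a, and the core matches in Cxcl10, Cxcl14 and Ccl19. The searched promoter of Cxcl9, also called higher in S7HP than in LHP, held neither motif. Stretches before 5 starts are shown: those of the neighbors Cxcl1, Cxcl2 and Cxcl3, to show how a shared motif sits in different surroundings, and those of Ccl20 and Cxcl10, which were both called higher in S7HP than in LHP. Capitals mark the matches, the sequences run 5′ to 3′ on the gene's strand, and the positions on GRCm38.p6 are chr5:90891135-90891204 for Cxcl1, chr5:90903763-90903832 for Cxcl2, chr5:90785989-90786058 for Cxcl3 and chr1:83116656-83116725 for Ccl20, all on the plus strand, and chr5:92348975-92349119 for Cxcl10 on the minus strand.
Cxcl1: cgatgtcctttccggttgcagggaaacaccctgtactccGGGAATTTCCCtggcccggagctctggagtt
Cxcl2: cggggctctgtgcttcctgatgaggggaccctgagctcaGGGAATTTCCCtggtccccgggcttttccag
Cxcl3: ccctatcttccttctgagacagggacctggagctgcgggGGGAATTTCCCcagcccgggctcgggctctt
Ccl20: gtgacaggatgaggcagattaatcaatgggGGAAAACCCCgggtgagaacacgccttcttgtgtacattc
Cxcl10: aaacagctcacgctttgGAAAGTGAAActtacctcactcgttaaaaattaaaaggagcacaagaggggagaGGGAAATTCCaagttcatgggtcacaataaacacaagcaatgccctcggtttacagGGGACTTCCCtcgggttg

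Cxcl1, Cxcl2 and Cxcl3 carried the same GGGAATTTCCC, which holds overlapping matches on both strands and begins 71, 97 and 73 bases before the start. Lined up on that motif without gaps, the 70-base stretches were identical at 36 positions between Cxcl1 and Cxcl2, 32 between Cxcl1 and Cxcl3 and 24 between Cxcl2 and Cxcl3, the motif included. In Ccl20 the match lay on the opposite strand. Cxcl10 held the response element core and, closer to the start, 2 different κB matches. A match is a run of letters and not a measured binding site.

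**Figure D1:**
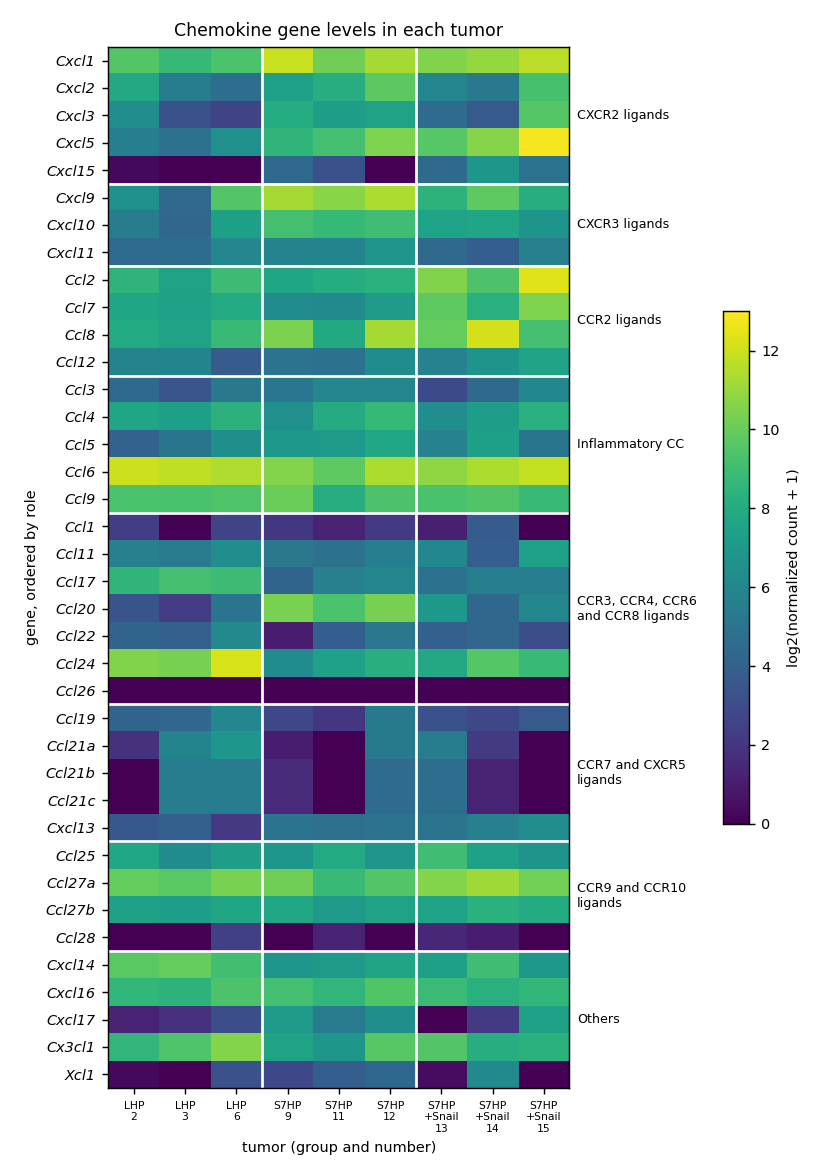
Level of each of the 38 chemokine genes, log2(normalized count + 1) as color, in each of the 9 tumors, with rows ordered by receptor group and white lines between groups of genes and of tumors. Cxcl5 is darkest in LHP and brightest in S7HP+Snail tumor 15, at 12.84, Ccl20 is bright in S7HP alone, and Ccl17 and Ccl24 are brightest in LHP.

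The comparison of S7HP with LHP asks which chemokine genes differ when Smad7 takes the place of Luc. In S7HP the epithelial chemokine Ccl20, the interferon-induced Cxcl9 and Cxcl10 and the neutrophil-attracting Cxcl1 and Cxcl5 rose, and Ccl17, Ccl24 and Cxcl14 fell. That was 5 higher and 3 lower among 34 tested, and 26 were not called. The share called was 23.5%, against 19.0% of all 14215 genes (9.47% higher and 9.54% lower), so the number of chemokine genes called was near that of genes at large. The groups did not overlap for 14 of 34 (41.2%), against 42.1% of all genes tested, and the median difference was 0.01, against 0.02. Of the tested genes, Ccl20, Cxcl3, Cxcl13, Cxcl15, Cxcl17 and the Ccl21 copies, among others, reached the test through some tumors only. Cxcl15, Cxcl17 and the Ccl21 copies were at or near 0 in others. Without S7HP+Snail tumor 14 in the fit, 6 were higher and 4 lower.

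With Snail added, Ccl20 fell and the monocyte chemokine Ccl7 rose in S7HP+Snail against S7HP. They were the only members called of 34 (5.88%), against 2.30% of all genes (1.01% higher and 1.29% lower). The groups did not overlap for 9 of 34 (26.5%), against 20.5% of all genes tested, and the median difference was 0.25, against -0.02. Without tumor 14, 2 were higher and 1 lower. In S7HP+Snail against LHP, Cxcl1, Cxcl5, Cxcl15 and the B cell attractant Cxcl13 were called higher and Ccl17 lower. This was 14.7% of 34, against 7.22% of all genes (3.35% higher and 3.87% lower). Cxcl13 and Cxcl15 were under a level of 4 in all 3 LHP tumors and reached the filter only through groups where they were high, so nothing is read from that share. The groups did not overlap for 11 of 34 (32.4%), against 30.5%, and the median difference was 0.55, against 0. Without tumor 14 this comparison had 4 higher and 3 lower, of which 2 were among the 5 above. The comparisons share groups and are not independent: S7HP enters the first and the second, and LHP the first and the third.

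**Figure D2:**
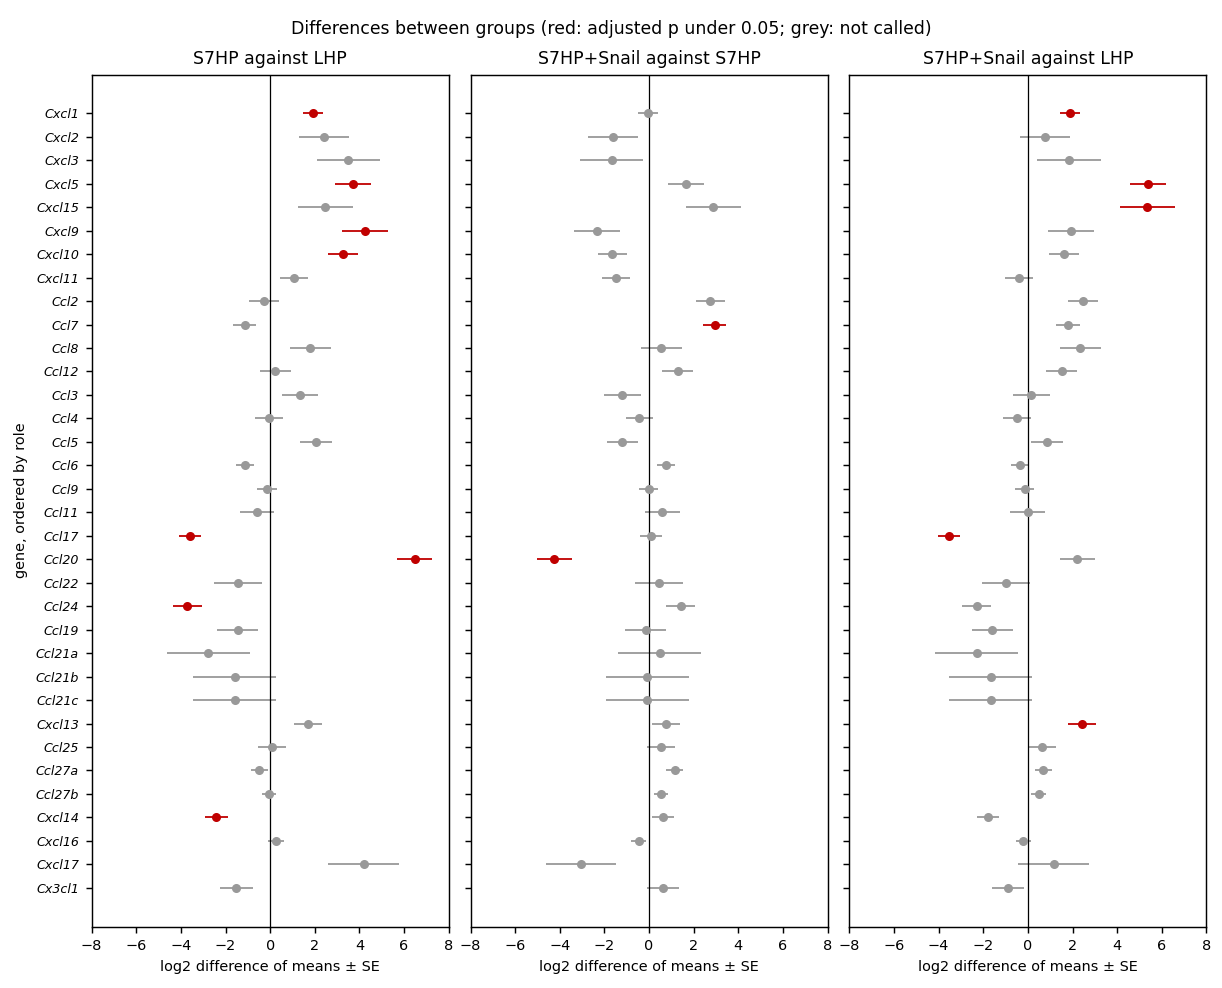
Difference of group means on the log2(normalized count + 1) scale, with limma's SE as the bar, for the 34 tested chemokine genes in the 3 comparisons, where red points passed an adjusted p under 0.05 and grey points did not. Ccl20 lies at 6.47 in S7HP against LHP and at -4.25 in S7HP+Snail against S7HP, and Cxcl5 lies above 0 in each comparison.

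Among the ligands of CXCR2, Cxcl5 was called in both comparisons with LHP. Its level was 5.60, 4.86 and 6.54 in LHP tumors 2, 3 and 6, 8.53, 9.10 and 10.50 in S7HP tumors 9, 11 and 12, and 9.63, 10.63 and 12.84 in S7HP+Snail tumors 13, 14 and 15. All 6 tumors with Smad7 were above the 3 LHP tumors, while S7HP and S7HP+Snail overlapped. Cxcl5 rose by 3.71 ± 0.81 (SE) in S7HP (limma adjusted p = 0.0128), which is 13.1-fold on the normalized count plus 1 scale. It rose by 5.37 ± 0.81 in S7HP+Snail against LHP (41.3-fold, limma adjusted p = 0.0068), and the 1.65 ± 0.81 between S7HP+Snail and S7HP did not pass (adjusted p = 0.325). The call in S7HP was lost without LHP tumor 3, at an adjusted p of 0.0538 in limma, in a range of 0.00292 to 0.0538 over the alternatives.

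Cxcl1, also known as KC, was at 9.51, 8.71 and 9.30 in LHP, 11.91, 10.18 and 11.23 in S7HP and 10.54, 10.96 and 11.67 in S7HP+Snail, in the same order of tumors. Each tumor with Smad7 was above each LHP tumor. Cxcl1 rose by 1.93 ± 0.45 in S7HP and by 1.89 ± 0.45 in S7HP+Snail against LHP (SE, limma adjusted p = 0.0167 and 0.0366), and S7HP+Snail lay at -0.05 ± 0.45 from S7HP. Leaving out LHP tumor 3 or S7HP tumor 9 ended the first call (adjusted p = 0.0643 and 0.0536). The second was lost in 7 of 17 alternatives (limma adjusted p from 0.0234 to 0.127 over all 17): with neither trend nor robust variances and without any 1 LHP tumor, S7HP tumor 12 or S7HP+Snail tumor 14 or 15.

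Cxcl2 and Cxcl3, close relatives of Cxcl1 that carry the same κB run, varied more than Cxcl1 within LHP and within S7HP+Snail. In S7HP the SD was 0.38 for Cxcl3, 0.87 for Cxcl1 and 1.18 for Cxcl2. Cxcl3 was at 6.37, 3.27 and 2.69 in LHP, 8.05, 7.31 and 7.51 in S7HP and 4.57, 3.69 and 9.57 in S7HP+Snail. S7HP lay wholly above LHP, and S7HP+Snail tumor 15 was above every other tumor while tumors 13 and 14 lay within the LHP range. Cxcl2 was at 7.84, 5.48 and 4.72 in LHP, 7.42, 8.12 and 9.72 in S7HP and 5.99, 5.18 and 9.20 in S7HP+Snail, where tumor 15 was again the highest of its group. Neither gene was called: the differences of S7HP from LHP were 3.51 ± 1.43 for Cxcl3 and 2.40 ± 1.12 for Cxcl2 (SE, limma adjusted p = 0.115 and 0.16). Cxcl3 passed when only the 6 libraries of the comparison were fitted (adjusted p = 0.0192), with array weights (0.0388) and without S7HP+Snail tumor 15 (0.0239), and Cxcl2 with array weights (0.0477).

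Cxcl15, a chemokine described mainly in lung, was near the floor in LHP, at 0.29, 0 and 0, where 0.29 is the lowest value above 0. It was at 4.44, 3.29 and 0 in S7HP and 4.49, 6.88 and 4.97 in S7HP+Snail. The S7HP+Snail tumors were above those of both other groups. Cxcl15 was called higher in S7HP+Snail than in LHP, with a fitted difference of 5.35 ± 1.23 (SE, limma adjusted p = 0.0322), which depends on the added 1 since LHP is at 3 reads or fewer. It reached the filter only through the Smad7 groups, so the call is given as a description. The call was lost without any 1 LHP or S7HP+Snail tumor, at adjusted p between 0.0513 and 0.0931. In S7HP against LHP the 2.48 ± 1.23 did not pass, and passed without S7HP tumor 12 (adjusted p = 0.183 and 0.0395).

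The neutrophil's own genes did not follow one pattern. The receptor Cxcr2 was at 4.42, 3.44 and 4.94 in LHP, 6.36, 6.06 and 6.26 in S7HP and 4.78, 5.66 and 7.97 in S7HP+Snail, without a call (1.96 ± 0.76 in S7HP against LHP, limma adjusted p = 0.0972). Of 9 neutrophil markers in the files, 7 were tested and 0 were called by limma in S7HP against LHP, where 4 of the 9 were lower with no overlap. Among the 7 tested, 2 did not overlap (28.6%, against 42.1% of all genes tested). Of these 7, 5 had a positive and 2 a negative difference, with a median of 0.86: S100a8, S100a9, Retnlg and Csf3r lay 1.57, 1.27, 1.65 and 0.86 above LHP, and Ngp and Camp at -3.80 and -4.19. Summed over the list, the normalized count ran from 1650 to 11200 in LHP, 6390 to 16100 in S7HP and 3540 to 32900 in S7HP+Snail. S7HP+Snail tumor 15 was highest in this sum, in Cxcr2, in Cxcl5 and in Cxcl3. The untested granule genes Elane and Mpo, which mark immature neutrophils, were listed at 0 in all 3 S7HP tumors and at 0.29 to 4.70 and 2.15 to 4.78 in LHP. The part of neutrophil number in the CXCR2 ligand levels was not tested, and in bulk tumors fewer cells of a type and less RNA per cell cannot be told apart.

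**Figure D3:**
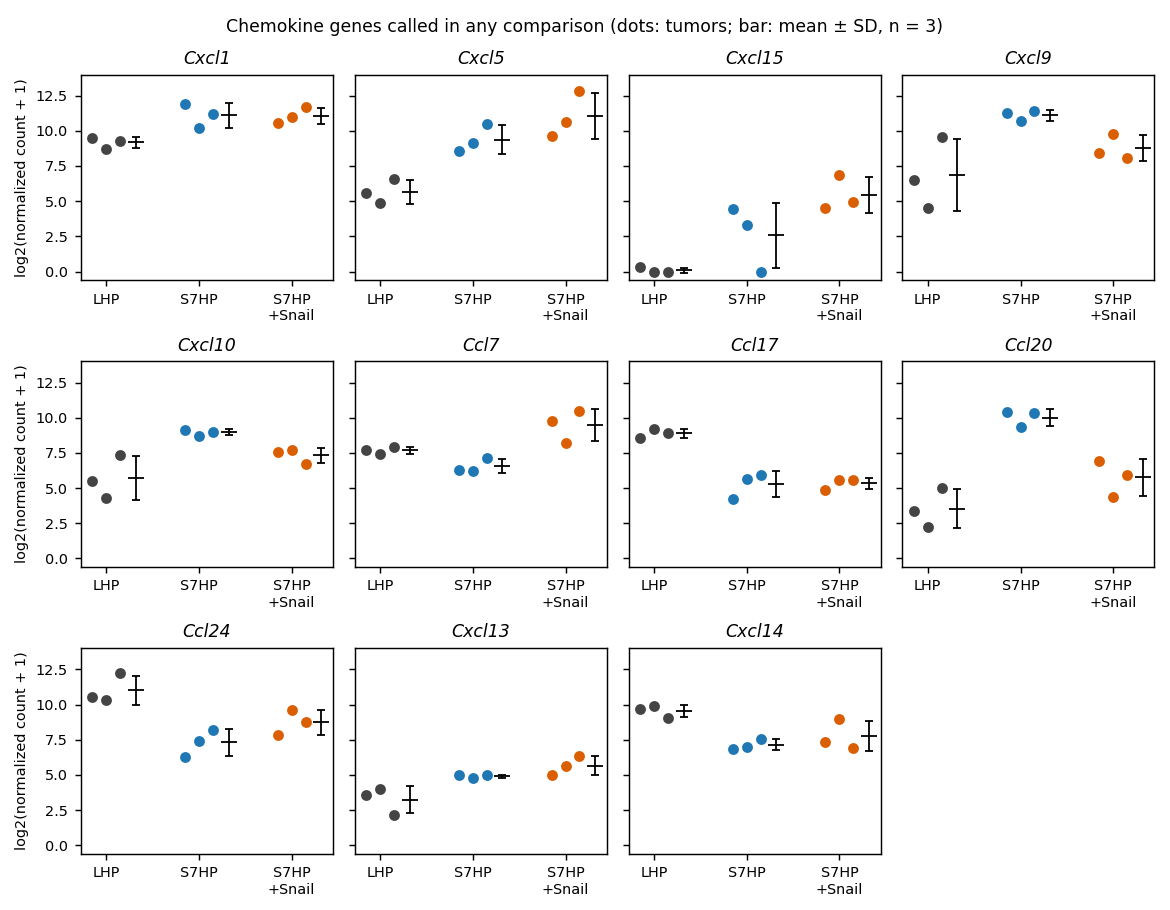
Level, log2(normalized count + 1), of the 11 chemokine genes called in any comparison, with 1 dot per tumor in the order of tumor numbers and a bar for the mean ± SD of the 3 tumors of a group. Ccl20, Cxcl9 and Cxcl10 are highest in S7HP, Ccl7 is highest in S7HP+Snail, and Ccl17, Ccl24 and Cxcl14 have their highest means in LHP.

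The CXCR3 ligands were highest in S7HP. Cxcl9, induced mainly by interferon gamma, was at 6.50, 4.51 and 9.54 in LHP, 11.24, 10.68 and 11.40 in S7HP and 8.40, 9.80 and 8.10 in S7HP+Snail. Each S7HP tumor was above all other tumors, and LHP was spread widely, with tumor 6 within the S7HP+Snail range. Cxcl9 rose by 4.26 ± 1.03 (SE) in S7HP against LHP, or 19.1-fold (limma adjusted p = 0.02). Leaving out LHP tumor 2, LHP tumor 3, S7HP tumor 9 or S7HP tumor 12 ended the call, with adjusted p up to 0.068.

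Cxcl10, which responds to interferon and NF-κB and holds both motifs above, was at 5.48, 4.27 and 7.37 in LHP, 9.15, 8.72 and 9.01 in S7HP and 7.55, 7.68 and 6.72 in S7HP+Snail. The S7HP tumors agreed closely (SD 0.22) and lay above all others, and LHP tumor 6 was again the highest of its group. Cxcl10 rose by 3.26 ± 0.66 (SE) in S7HP, 9.55-fold (limma adjusted p = 0.00982), and was called in 17 of 17 alternatives. Cxcl11, which GENCODE lists as a polymorphic pseudogene, was at 4.57, 4.60 and 6.02 in LHP, 5.79, 5.86 and 6.77 in S7HP and 4.49, 3.86 and 5.66 in S7HP+Snail and was not called. Against LHP, Cxcl9 and Cxcl10 were 1.92 ± 1.03 and 1.61 ± 0.66 higher in S7HP+Snail, which passed only without LHP tumor 6 (limma adjusted p = 0.045 and 0.0354). With Snail the 3 ligands lay below S7HP with no overlap, by -2.34 ± 1.03 for Cxcl9, -1.65 ± 0.66 for Cxcl10 and -1.47 ± 0.62 for Cxcl11, and none passed (limma adjusted p = 0.275, 0.23 and 0.251).

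The receptor and the markers of the cells that carry it were read beside these ligands. Cxcr3 was not tested, with levels from 0 to 5.99, the highest in LHP tumor 6. Of 11 T and NK cell markers in the files, Cd3d, Cd3g, Cd4, Cd8a, Nkg7, Gzma and Klrb1c were tested. By limma 0 of these were called in any comparison, with 0 at an unadjusted p under 0.05. Cd3e was not tested, since its level reached 4 in S7HP+Snail tumor 14 alone (4.53), short of the filter. The tested markers all had a positive difference in S7HP against LHP, from 0.41 for Cd3g to 2.59 for Cd8a (median 0.02 for all genes). Of the untested markers, Cd3e and Ncr1 lay at 0.46 and 0.63 in that comparison. Gzmb and Prf1 lay the other way, at -0.49 and -1.28. In S7HP+Snail against S7HP, Cd3d, Cd3g, Cd4, Cd8a and Nkg7 had a negative difference, and Gzma and Klrb1c a positive one. The summed count of the 11 markers was 18.6 to 445 in LHP, 149 to 360 in S7HP and 83.7 to 464 in S7HP+Snail. LHP tumor 6 was the highest of its group in this sum, in Cxcl9 and in Cxcl10, and the markers' part in the group differences was not tested. Interferon gamma itself, Ifng, was listed at 0 in 6 of 9 libraries and was at most 2.47.

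Of 22 listed genes that carry the interferon signal, 20 were tested in S7HP against LHP, and 5 rose, 1 fell and 14 were not called (30% called, against 19.0% of all genes), with a median difference of 0.79. The transcription factors Irf7 and Irf3 rose by 1.67 ± 0.32 and 1.32 ± 0.31, the receptor chain Ifngr1 by 0.99 ± 0.22, the RNA sensor Ifih1 by 1.36 ± 0.33 and the kinase Tbk1 by 1.03 ± 0.25 (SE). Mb21d1, the DNA sensor cGAS, fell by 1.02 on the log2 scale. Limma adjusted p for these 6 was between 0.00788 and 0.0426. Between S7HP+Snail and LHP 3 rose (Irf7, Ifngr1 and Ifih1) and 0 fell (15%, against 7.22% of all genes). Irf7 held in 17 of 17 alternatives, Ifngr1 was lost without any 1 LHP tumor (up to 0.0699) and Ifih1 was lost in 11 of 17 (up to 0.147), with tumors 2, 3, 11, 12, 13, 14 and 15 each ending the call. Against S7HP, 0 of 20 were called by limma, with 2 higher and 1 lower at an unadjusted p under 0.05, which 17.8% of all genes reached.

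Of 28 genes on the NF-κB route, 26 were tested, and in S7HP 4 rose and 2 fell (23.1%, against 19.0% of all genes), with a median difference of -0.18. The interleukin 1 receptor antagonist Il1rn rose by 3.69 ± 1.07, the adhesion molecule Icam1 by 1.78 ± 0.32, the inhibitor Nfkbib by 1.56 ± 0.27 and the kinase subunit Ikbkg by 0.71 ± 0.22 (SE). The cytokine Il6, at 6.10, 4.43 and 4.42 in LHP and 0, 0 and 1.29 in S7HP, fell and the NF-κB subunit Relb fell by 0.95 on the log2 scale. Limma adjusted p was at most 0.0479. Il6 reached the filter through LHP, where it was high, and S7HP+Snail tumor 13 (4.43). In S7HP it was at 3 reads or fewer, so its call is given as a description. Of the 12 calls on the 2 routes, those of Irf7, Icam1 and Nfkbib held in 17 of 17 alternatives. Each of the other 9 was lost without at least 1 tumor of LHP or S7HP, and each of those 6 tumors ended at least 1 call. With Snail, Icam1 fell against S7HP by 1.64 on the log2 scale (limma adjusted p = 0.034), a call ended by leaving out tumor 3, 9, 11, 12, 13 or 14 (up to 0.108), and no other gene of this list was called. Against LHP 0 of 26 were called by limma, with 0 higher and 4 lower at an unadjusted p under 0.05, which 25.1% of all genes reached.

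The genes grouped here as ligands of CCR2, the receptor that brings monocytes out of the marrow, had their highest means in S7HP+Snail. Ccl7 was at 7.70, 7.43 and 7.94 in LHP, 6.27, 6.23 and 7.12 in S7HP and 9.75, 8.23 and 10.48 in S7HP+Snail. The 3 groups did not overlap, with S7HP lowest. Ccl7 rose by 2.94 ± 0.52 (SE) in S7HP+Snail against S7HP, 7.70-fold (limma adjusted p = 0.022). It no longer passed when only the 6 libraries compared were fitted, when any 1 S7HP tumor was left out, or without S7HP+Snail tumor 13, with adjusted p up to 0.0941. Against LHP the 1.80 ± 0.52 did not pass (adjusted p = 0.0655) and passed without tumor 14 (0.00868) and with array weights. The -1.15 ± 0.52 between S7HP and LHP likewise passed only without tumor 14 (0.0411) or with the 6 libraries compared.

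Ccl2, or MCP-1, the best known of these ligands and the neighbor of Ccl7, was at 8.43, 7.51 and 8.93 in LHP, 7.65, 8.05 and 8.32 in S7HP and 10.53, 9.37 and 12.36 in S7HP+Snail. The S7HP+Snail tumors were above all others, tumor 15 most of all. Ccl2 was 2.75 ± 0.66 above S7HP and 2.46 ± 0.66 above LHP (SE, limma adjusted p = 0.0697 and 0.0532), and neither passed. Without tumor 14, the lowest of the 3, the differences were 3.44 and 3.16 and both passed (limma adjusted p = 0.0163 and 0.013).

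Ccl8 and Ccl12, grouped with them, were not called. Ccl8 was at 7.94, 7.47 and 8.77 in LHP, 10.46, 7.89 and 11.23 in S7HP and 9.91, 12.14 and 9.16 in S7HP+Snail. S7HP+Snail lay above LHP, with tumor 14 the highest, by 2.34 ± 0.92 (limma adjusted p = 0.15). Ccl12 had means of 5.15, 5.38 and 6.65. The receptor Ccr2 was at means between 7.59 and 8.45 in the 3 groups, and was not called. Of 13 macrophage and monocyte markers, all were tested, and in S7HP against LHP 2 fell (15.4%, against 19.0% of all genes called), the integrin Itgam by 1.41 and the scavenger receptor Marco by 2.21 on the log2 scale, of which Itgam was lost without any 1 LHP tumor or S7HP tumor 11. Between S7HP+Snail and S7HP 0 were called by limma and 0 reached an unadjusted p under 0.05. The summed macrophage count was 8910 to 14100 in LHP, 4770 to 8340 in S7HP and 7650 to 12600 in S7HP+Snail, so S7HP+Snail overlapped both other groups in this sum. Its part in the CCR2 ligand levels was not tested.

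**Figure D4:**
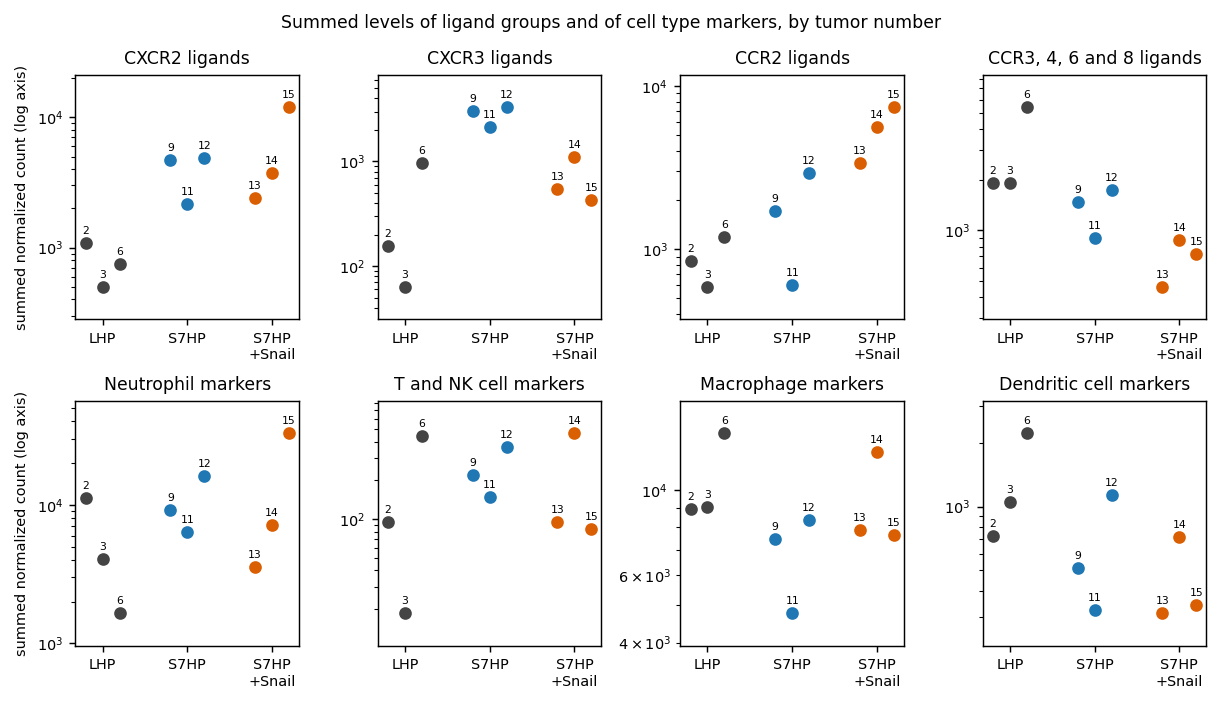
Summed normalized count per tumor, on a log axis, of 4 ligand groups in the upper row and of 4 lists of cell type markers in the lower row, with the tumor number beside each dot. The CXCR2 ligands sum to 499 to 1080 in LHP and to 2150 to 4870 in S7HP, and tumor 15 is highest for the CXCR2 ligands, the CCR2 ligands and the neutrophil markers.

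Ccl20, the ligand of CCR6 made by epithelial cells, had the largest difference of all 34 tested members in S7HP against LHP. It lies on chromosome 1, from 83116766 to 83119167, with no other member within 200 kb. Its level was 3.38, 2.26 and 4.98 in LHP, 10.38, 9.31 and 10.33 in S7HP and 6.95, 4.35 and 5.96 in S7HP+Snail. S7HP was far above both other groups, which overlapped each other through tumor 14 and LHP tumor 6. Ccl20 rose by 6.47 ± 0.79 (SE) in S7HP, 88.4-fold on the normalized count plus 1 scale (limma adjusted p = 0.0012), and was called in 17 of 17 alternatives. LHP tumors 2 and 3 lay under the filter's level of 4, between the levels of 3 and 10 reads, so the fold depends on the added 1. Ccl20 reached the filter mainly through the Smad7 groups, so the size of this difference is given as a description. With Snail, against S7HP, it fell by 4.25 on the log2 scale, with an SE of 0.79 (19.0-fold, limma adjusted p = 0.0282). That call was lost with array weights and without LHP tumor 2 or any 1 S7HP tumor, at up to 0.0973, while the difference lay between -4.85 and -3.55 over all 17 alternatives. Against LHP, S7HP+Snail stood at 2.22 ± 0.79, which did not pass (adjusted p = 0.121) but did without tumor 14 (0.0469). Its receptor Ccr6 ran from 0 to 5.97 and was not called.

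Ccl17 and Ccl24 were high in LHP. Ccl17, a ligand of CCR4 that attracts T helper cells and is made by dendritic cells and macrophages, was at 8.53, 9.17 and 8.93 in LHP, 4.20, 5.67 and 5.95 in S7HP and 4.88, 5.59 and 5.55 in S7HP+Snail. Both Smad7 groups lay wholly below LHP and overlapped each other. Ccl17 fell by 3.60 in S7HP and by 3.54 in S7HP+Snail on the log2 scale, each with an SE of 0.49 (limma adjusted p = 0.00169 and 0.00468), and both calls were made in 17 of 17 alternatives. Its neighbors Ccl22, which binds the same receptor, and Cx3cl1 were not called, at differences of -1.43 ± 1.07 and -1.52 ± 0.73 in S7HP, where Cx3cl1 passed only without S7HP tumor 12 (limma adjusted p = 0.0398). CCR4 itself was not tested, since Ccr4 was at most 3.69.

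Ccl24, or eotaxin-2, which draws eosinophils through CCR3 (chromosome 5, 135569937 to 135573049), was at 10.52, 10.32 and 12.21 in LHP, 6.27, 7.43 and 8.22 in S7HP and 7.83, 9.58 and 8.79 in S7HP+Snail. LHP lay above both other groups. Ccl24 fell by 3.71 in S7HP with an SE of 0.65 (limma adjusted p = 0.00593), which held in 17 of 17 alternatives. The -2.29 ± 0.65 in S7HP+Snail against LHP did not pass (adjusted p = 0.0637) and passed without tumor 14 (0.0438). Another eotaxin, Ccl11, was not called, with means of 5.81, 5.21 and 5.80.

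Markers of dendritic cells were read beside Ccl17 and Ccl24. Of 8 in the files, Itgax, Clec9a, Xcr1, Ccr7, Batf3 and Zbtb46 were tested. Siglech and Flt3 were not, and Flt3 reached a level of 4 in LHP tumor 6 alone (4.35), short of the filter. Between S7HP and LHP 0 of the tested markers were called by limma. At an unadjusted p under 0.05, which 34.4% of all genes reached, 0 were higher and 2 lower. Itgax, the integrin CD11c, fell by 2.04 on the log2 scale in S7HP+Snail against LHP (limma adjusted p = 0.0422), a call kept in 8 of 17 alternatives and lost without LHP tumor 3 or 6, S7HP tumor 9 or any 1 S7HP+Snail tumor. The summed count was 727 to 2220 in LHP, 326 to 1140 in S7HP and 314 to 720 in S7HP+Snail, highest in LHP tumor 6, which also had the highest Ccl24. The part of these cells in the falls of Ccl17 and Ccl24 was not tested.

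Cxcl14, a chemokine of epithelia and fibroblasts (chromosome 13, 56288643 to 56296551), was at 9.68, 9.91 and 9.04 in LHP, 6.83, 6.99 and 7.57 in S7HP and 7.36, 9.00 and 6.93 in S7HP+Snail. LHP was above the other groups in every tumor, by little for tumor 14. Cxcl14 fell by 2.41 in S7HP with an SE of 0.50 (limma adjusted p = 0.0109, called in 17 of 17 alternatives). Between S7HP+Snail and LHP the -1.78 ± 0.50 did not pass (adjusted p = 0.0618), and without tumor 14 it was -2.40 and passed (0.00768). Of 10 stellate cell and fibroblast markers, 5 fell in S7HP and 0 rose, against 9.54% of all genes lower, among them Acta2, Des and Col1a1, of which Des was lost without any 1 LHP or S7HP tumor. Reln lay the other way with no overlap, at 1.99 ± 0.73 (limma adjusted p = 0.0853). Their summed count was 37500 to 56500 in LHP, 6990 to 11400 in S7HP and 11200 to 16400 in S7HP+Snail, and their part in Cxcl14 was not tested.

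The remaining epithelial and membrane-bound chemokines tested were not called. Cxcl17, a mucosal chemokine, was at 1.22, 1.83 and 3.10 in LHP, 6.98, 5.31 and 6.46 in S7HP and 0, 2.19 and 7.42 in S7HP+Snail. S7HP lay above LHP, and S7HP+Snail spanned the whole range, with tumor 15 the highest of all. Its 4.20 ± 1.59 in S7HP did not pass (limma adjusted p = 0.0936), and passed when only the 6 libraries compared were fitted (0.00546), with array weights (0.0432) and without S7HP+Snail tumor 13 (0.0456) or 15 (0.0142). Without tumor 15 it was also called lower in S7HP+Snail than in S7HP, at -5.16 (adjusted p = 0.0374). Cxcl16, a membrane-bound ligand of CXCR6, lay between 8.26 and 9.49 in all tumors. Ccl25, a ligand of CCR9, ran from 6.28 to 9.02.

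The CCR10 ligand Ccl27a was at 9.91, 9.66 and 10.39 in LHP, 10.20, 8.79 and 9.53 in S7HP and 10.61, 11.16 and 10.22 in S7HP+Snail. It was 1.16 ± 0.38 above S7HP in S7HP+Snail, with no overlap, and did not pass (limma adjusted p = 0.15). Ccl27b, a near copy, had means of 7.44, 7.39 and 7.93, and reads may be shared between the copies.

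The inflammatory CC ligands Ccl3, Ccl4, Ccl5, Ccl6 and Ccl9 gave no call in any comparison by limma, with 1 higher and 1 lower at an unadjusted p under 0.05 in S7HP against LHP, where 34.4% of all genes reached that p, and 0 in either other comparison (17.8% and 25.1% of all genes). Ccl6, a myeloid chemokine, had the highest mean of the 38 members in LHP, at 12.01, 11.75 and 11.44. It was at 10.60, 9.77 and 11.40 in S7HP and 10.86, 11.38 and 11.85 in S7HP+Snail, so that S7HP lay below LHP, by -1.14 ± 0.40, which passed only without S7HP tumor 12 (limma adjusted p = 0.0754 and 0.0273). Ccl5, or RANTES, made by T and NK cells, was at 4.11, 5.03 and 6.46 in LHP, 6.91, 7.01 and 7.79 in S7HP and 5.77, 7.35 and 5.04 in S7HP+Snail. S7HP was above LHP by 2.04 ± 0.71 with no overlap, which did not pass (limma adjusted p = 0.0722) and passed in 4 of 17 alternatives, without LHP tumor 6 and without tumor 14 among them. Ccl9, Ccl4 and Ccl3 differed by at most 1.35 in any comparison.

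Of the lymphoid chemokines, Cxcl13, which draws B cells into follicles through CXCR5, was at 3.56, 3.98 and 2.15 in LHP, 4.97, 4.79 and 4.97 in S7HP and 4.98, 5.66 and 6.36 in S7HP+Snail. The 3 groups did not overlap. Cxcl13 was called higher in S7HP+Snail than in LHP, by 2.44 ± 0.63 (SE, limma adjusted p = 0.0472), a call kept in 4 of 16 alternatives (up to 0.132) and lost without any 1 of the 9 tumors. It reached the filter only through the Smad7 groups, so the call is given as a description, and LHP tumor 6 lay between the levels of 3 and 10 reads. B and plasma cell genes did not move with it: of 6 markers 2 were tested, and Jchain and Mzb1 fell in S7HP+Snail against LHP by 5.81 and 4.49 on the log2 scale (limma adjusted p = 0.0202 and 0.0469). These were lost without LHP tumor 2 or 6 for both, and for Mzb1 also without S7HP tumor 11 or 12 or any 1 S7HP+Snail tumor.

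The CCR7 ligands Ccl19 and Ccl21a, which guide dendritic and T cells to lymph nodes, were not called. Ccl19 was at 4.21, 4.27 and 6.04 in LHP, 2.81, 2.08 and 5.25 in S7HP and 3.29, 2.81 and 3.62 in S7HP+Snail, which lay below LHP by -1.60 ± 0.92 (limma adjusted p = 0.314). Ccl21b and Ccl21c were identical in 9 of 9 libraries, as reads counted for both copies would be, and are best taken as 1 gene. The Ccl21 genes ran from 0 to 6.82 and varied within every group, with Ccl21a at 1.87, 5.86 and 6.82 in LHP, 1.0, 0 and 5.25 in S7HP and 5.47, 2.19 and 0 in S7HP+Snail. The platelet chemokines Pf4 and Ppbp, which carry other symbols and are no members, were not called.

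No chemokine receptor gene on the list was called. Of 21 in the files, 13 were tested, and 0 passed in limma in each of the 3 comparisons, against 19.0%, 2.30% and 7.22% of all genes. At an unadjusted p under 0.05, 1 was higher and 2 lower in S7HP against LHP, 2 and 0 in S7HP+Snail against S7HP, and 2 and 1 in S7HP+Snail against LHP. Of all genes, 34.4%, 17.8% and 25.1% reached that p in these comparisons. The smallest p in S7HP against LHP was that of Ccr1, a receptor of Ccl6 and Ccl9, at -1.31 ± 0.41 with no overlap (limma adjusted p = 0.0509). Cx3cr1, the receptor of fractalkine on monocytes and resident macrophages, was at 8.15, 7.97 and 7.74 in LHP, 8.97, 7.31 and 8.59 in S7HP and 8.94, 10.37 and 9.28 in S7HP+Snail, which overlapped S7HP but not LHP, and the 1.57 ± 0.47 against LHP did not pass (limma adjusted p = 0.0747).

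Proteases that trim chemokines or release their membrane-bound forms were read as well. Of 9 genes for processing, Mmp9 and Mmp12 fell in S7HP against LHP, by 3.01 and 2.35 on the log2 scale (limma adjusted p = 0.00901 and 0.03), which is 22.2% of the list against 19.0% of all genes. Mmp12 was lost without tumor 2, 3, 6, 9 or 11 (up to 0.103). With Snail, Mmp9 rose against S7HP by 2.79 ± 0.60 and Adam10, which sheds Cx3cl1 and Cxcl16, by 1.23 ± 0.27 (SE, limma adjusted p = 0.0454 and 0.0478), again 22.2% of the list, against 2.30% of all genes. Adam10 was at 10.44, 10.56 and 10.02 in LHP, 10.47, 10.82 and 10.19 in S7HP and 11.83, 12.05 and 11.31 in S7HP+Snail, above both other groups in 3 of 3 tumors. Leaving out tumor 2, 9, 11, 12, 14 or 15 ended the call of Mmp9 and leaving out any tumor but 15 that of Adam10, with adjusted p up to 0.152 and 0.144. Against LHP, Adam10 rose by 1.39 ± 0.27 in S7HP+Snail (limma adjusted p = 0.0177), lost without LHP tumor 6 (0.0736).

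Beside 19.0% of all genes called, other cell type markers in S7HP against LHP were 6 higher and 0 lower of 9 for hepatocytes, 1 higher and 1 lower of 6 for cholangiocytes, 0 higher and 2 lower of 10 for endothelium and 0 of the 4 tested for platelets (limma). With Snail, where 2.30% of all genes were called, 1 of 10 endothelial genes, Plvap, rose against S7HP, and no other gene of these lists was called. It was lost in 10 of 17 alternatives (up to 0.13), and leaving out tumor 2, 3, 6, 9, 11, 12, 13 or 14 each ended the call. Against LHP, with 7.22% of all genes called, S7HP+Snail had 2 hepatocyte genes and 1 cholangiocyte gene higher, and 4 stellate cell genes and the platelet integrin Itgb3 lower. Itgb3 was lost in 11 of 17 alternatives (up to 0.156), with tumors 3, 6, 9, 11, 12, 13 and 14 each ending the call. Their part in the chemokine differences was not tested.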

How the data were processed

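Gene expression was read in 9 tumor libraries, made per the labels' protocols with a QuantSeq kit from 500 ng of total RNA. The submitters' processing notes name Bowtie2, edgeR and mm10, with no role for either tool, and how reads were counted is not given in the sources used here. The deposited level of a gene is on the log2 scale, after adding 1, and its values point to quantile normalization: the highest is 20.06 in each of the 9 files, and the unlogged totals lie between 19910396 and 19911234. Quantile normalization gives each library the same distribution, so shifts common to most genes are not visible and depth is lost.

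One model held all 9 libraries (limma 3.58.1 in R 4.3.3; lmFit, then eBayes with trend and robust variances, 6 residual degrees of freedom, two-sided). It took the genes that reached 4 on the log2 scale in 3 or more libraries. P-values were Benjamini-Hochberg adjusted over 14215 genes. The fit was tested on simulated data. Count tests were not used, since the deposited values are not counts. With 3 against 3 tumors an exact permutation test of 1 gene cannot go below 0.1. No numbers pair the tumors.

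The members, role groups and lists (receptors, NF-κB and interferon routes, processing, 10 cell types) were chosen with earlier results of these data known. Of 210 list entries 208 matched a symbol, and 1 further receptor is not reported here. Values are given per tumor for members called or not overlapping in a comparison and for the best known of each group. The alternatives were 2 scalings, a pseudocount of 8, no filter, a filter at 6, 2 variance models, a fit of only the 6 libraries compared, and leaving out each library. Figures were drawn with matplotlib 3.10.9 (Python 3.11.15).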

Additional observations from a re-analysis of the deposited data

How the results depend on the processing

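All alternatives were chosen together with the design. Of 17 per comparison, no called chemokine gene changed direction under any. No paired analysis was possible because the tumor numbers differ between groups. The chemokine genes called in S7HP against LHP numbered 8, and 5 to 10 when 1 library was left out; they numbered 8 under 6 of the 8 other settings and 12 under array weights and with only the 6 libraries compared. In S7HP+Snail against S7HP the 2 became 1 with array weights and 1 with only the 6 libraries compared, and 0 to 3 with 1 library left out, with 0 without S7HP tumor 9, 11 or 12. In S7HP+Snail against LHP the 5 became 3 under the filter at 6, which leaves 25 members tested, and 2 to 7 with 1 library left out. Members without overlap, 14, 9 and 11 in the order of these comparisons, were 15 to 20, 10 to 14 and 11 to 17 with 1 of the compared libraries left out. All genes called, 2702, 327 and 1026, ran over 1465 to 3163, 63 to 451 and 293 to 1049 with 1 library left out, and were 120 in S7HP+Snail against S7HP and 682 in S7HP+Snail against LHP with only the 6 libraries compared. Genes of the receptor, route, processing and marker lists called, 32, 4 and 15, ran over 20 to 42, 0 to 5 and 6 to 16; in S7HP+Snail against S7HP they were 2 without a filter, 1 with neither trend nor robust variances, 2 with array weights and 0 with 6 libraries, and in S7HP+Snail against LHP 9 with neither trend nor robust variances. The causes were not tested, apart from the fewer genes or samples that a setting leaves. How far depth limits the low values of Cxcl15, Cxcl17, Cxcl13 and the Ccl21 copies, and those of Ccl20 and Cxcl3 in LHP, was not tested.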
